A study of Mus musculus with 3 samples.

Results

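The genes described here are the Wnt ligands, their Frizzled (Fzd) receptors, the secreted frizzled-related proteins (Sfrp) and the Dickkopf (Dkk) proteins of the mouse. They were taken by symbol, as every protein-coding gene whose name is Wnt, Fzd, Sfrp or Dkk followed by a number and, where it has one, the letter a or b. This gave 37 of the 54532 genes in the tables, or 37 of the 22046 that are protein-coding, with 19 Wnt, 10 Fzd, 4 Sfrp and 4 Dkk genes. The rule used names and no measured value. RNA-seq was available for 3 libraries, 1 per condition. MICFs are cardiac fibroblasts isolated from Myh6-mCherry transgenic mice, in which the Myh6 promoter drives the reporter in cardiomyocytes, 5 days after surgical myocardial infarction (MI), which the study's methods place at 8 weeks of age, and cultured for 4 weeks without virus. The sort for mCherry is stated for the iCMs only. GMTMS-iCMs are induced cardiomyocytes from such cells transduced with lentiviruses for Gata4, Mef2c, Tbx5, Myocd and Sall4, and GMTMM-iCMs are the counterpart in which Mesp1 takes the place of Sall4. Expression of the factors was switched on with 1 µg/ml doxycycline, mCherry+ cells were sorted after 4 weeks, and 5 samples were combined into each iCM library. With 1 library per condition no difference below has a replicate check, and the 3 comparisons share libraries, so their values are given side by side and not as separate evidence.

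Wnt proteins are secreted, lipid-modified signals. They bind Frizzled receptors together with Lrp5 or Lrp6, which stops the destruction of β-catenin and lets it act with TCF/LEF factors on target genes, while other Frizzled signals act through the cytoskeleton and planar polarity genes without β-catenin. Sfrp proteins carry a Frizzled-like domain and can hold Wnt proteins away from the receptors, and Dkk1, Dkk2 and Dkk4 act on Lrp5 and Lrp6 instead. In the heart, the pathway is known for stage-dependent roles in making cardiomyocytes and for its activity in fibroblasts after injury.

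A fold is the ratio of deposited FPKM (fragments per kilobase of gene, scaled by the authors' library size), with a 95% Clopper-Pearson interval computed from the counts that covers counting error only. It is given for genes with at least 20 counts in at least 1 library, and a gene is called higher or lower when its fold is over 2. For these calls and for medians, counts under 3 were set to 3, since a count of 0 allows up to 3. The libraries held 11861773 (MICFs), 10624118 (GMTMS-iCMs) and 11904484 (library labelled GMTMM) counts. Sall4 had 0, 1190 and 1060 counts in that order and Mesp1 had 0 in all 3 libraries, which goes against the label of the GMTMM library, so it is called the GMTMM-labelled library throughout. Where 3 values follow each other, their order is MICFs, GMTMS-iCMs, then the GMTMM-labelled library. Directions drawn from the last are those of that library, whichever factors its cells received. Cardiomyocyte markers summed to 1.28, 1315 and 488 FPKM over 7 genes, with Myh6, Myl7, Ryr2 and Actn2 at 0 counts in MICFs. Macrophage markers were high in every library, also in the sorted cells, and Lyz2 alone stood at 6135, 11353 and 5495 FPKM.

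Of the 37 genes, 33 had at least 1 count and 19 reached 20 counts in a library: 5 Wnt, 8 Fzd, all 4 Sfrp and 2 Dkk genes. Wnt1, Wnt8a, Wnt8b and Dkk4 had 0 counts in all 3 libraries. Another 14 genes had between 1 and 19 counts in their highest library and are given no fold. Together the 37 genes took 8852 counts in MICFs, against 3373 in GMTMS-iCMs and 12368 in the GMTMM-labelled library, or 746, 317 and 1039 CPM (counts scaled to the library total).

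In GMTMS-iCMs against MICFs, 12 of the 19 genes were lower (63.2%), where 19.1% of the 12835 protein-coding genes with 20 counts were lower, and 5 were higher (26.3%, against 14.1%). In the GMTMM-labelled library against MICFs, 9 were higher (47.4%, against 12.7%) and 1, Fzd4, was lower (5.26%, against 8.55%). Between the iCM libraries, GMTMS-iCMs were lower for 14 genes (73.7%, against 18.6%) and higher for Fzd7, Sfrp5 and Wnt5b (15.8%, against 9.79%). The median log2 fold of the 19 genes was -1.38 for GMTMS-iCMs against MICFs, 0.89 for the GMTMM-labelled library against MICFs and -2.03 between the iCM libraries, beside medians of -0.05, 0.02 and 0.01 over all 12835 genes. GMTMS-iCMs held the lowest FPKM of 14 of the 19 genes, MICFs of 5 and the GMTMM-labelled library of 0, while over all 12835 genes these libraries were lowest for 37.4%, 33.3% and 29.3%. The 5 genes higher in GMTMS-iCMs than in MICFs were Fzd7, Fzd5, Sfrp5, Wnt5b and Dkk2, and the 2 on neither side were Wnt11 and Fzd3. With library totals in place of the deposited scale, Fzd1, Fzd3, Fzd7 and Wnt5b were no longer called higher in the GMTMM-labelled library (log2 folds of 0.81, 0.82, 0.88 and 0.93), and Dkk2 was no longer called higher in GMTMS-iCMs (0.63), both against MICFs. Fzd2 in the GMTMM-labelled library (-1.24) and Fzd3 in GMTMS-iCMs (-1.20) then passed the limit as lower than in MICFs, and Wnt5b (0.85) no longer differed by 2-fold between the iCM libraries.

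**Figure D1:**
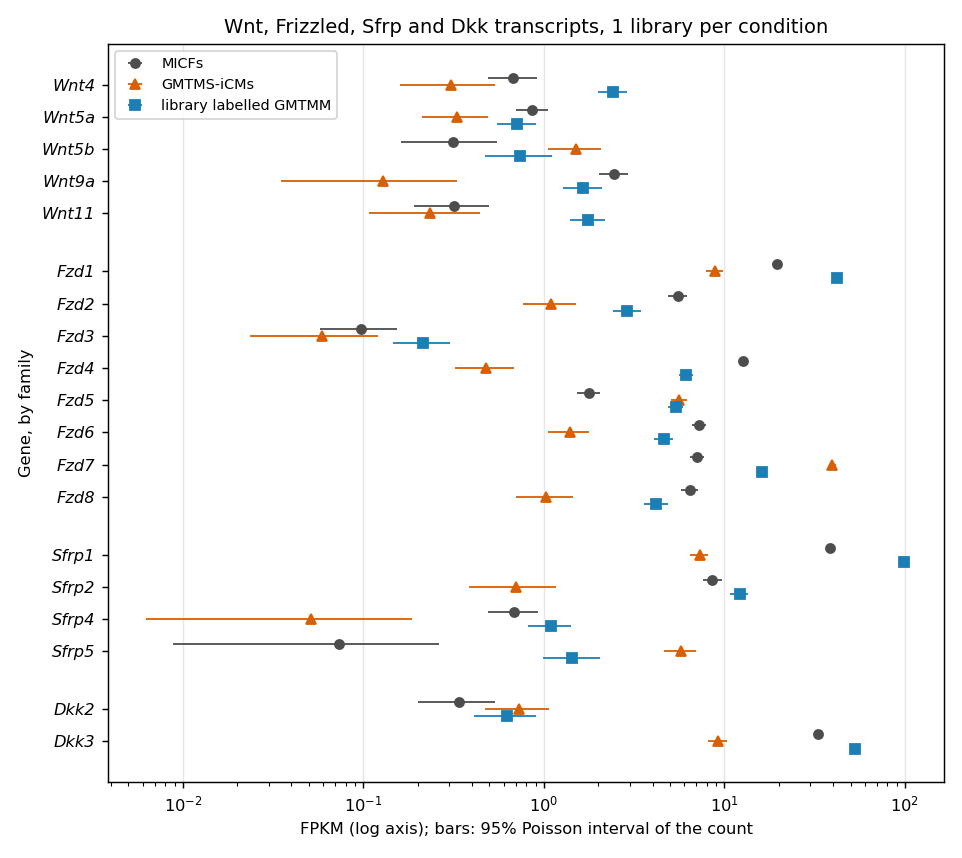
FPKM on a log axis of the 19 genes with at least 20 counts in a library, grouped by family, with 1 point per library and a 95% Poisson interval of its count as the bar. GMTMS-iCMs lie lowest for 14 genes, while Fzd7 at 39.7 FPKM and Sfrp5 at 5.72 FPKM stand highest there.

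The stretches of DNA just upstream of the genes with the largest changes are shown first, because the delivered factors Gata4, Tbx5, Mef2c and Myocd act through short DNA words. RefSeq windows (GRCm38.p6) were found for 11 of the 19 genes. The 250 bases before the RefSeq start are printed 5′ to 3′ on the gene's strand for the 2 of these 11 genes with the largest rise and the 2 with the largest fall in GMTMS-iCMs against MICFs. Capitals mark matches on either strand to the word AGATAA of GATA factors, the word AGGTGT of T-box factors, the word CTTTGA of TCF/LEF factors, the CArG box of serum response factor, which Myocd works with, and the MEF2 box. These words do not overlap each other in the sequences shown. No word was searched for Sall4, also delivered, or for Mesp1 of the GMTMM label. The window of Sfrp5 lies at chr19:42202253-42202502 on the minus strand, that of Fzd7 at chr1:59481897-59482146, of Fzd4 at chr7:89404116-89404365 and of Wnt9a at chr11:59306680-59306929, the last 3 on the plus strand. In the annotation of the counts, Fzd7 starts at 59482424, further downstream than its window reaches. Fzd4 starts there at 89404355 and Wnt9a at 59306928, both inside the end of their windows.
Sfrp5: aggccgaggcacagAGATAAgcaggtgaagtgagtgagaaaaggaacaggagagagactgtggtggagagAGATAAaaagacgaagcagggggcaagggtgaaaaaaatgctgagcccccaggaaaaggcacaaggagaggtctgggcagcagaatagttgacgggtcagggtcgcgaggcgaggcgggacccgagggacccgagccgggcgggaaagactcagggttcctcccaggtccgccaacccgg
Fzd7: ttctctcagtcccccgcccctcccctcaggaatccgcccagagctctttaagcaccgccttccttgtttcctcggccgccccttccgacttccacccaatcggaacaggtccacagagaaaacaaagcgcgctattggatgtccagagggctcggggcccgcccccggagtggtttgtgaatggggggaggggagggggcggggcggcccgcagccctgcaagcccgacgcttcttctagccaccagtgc
Fzd4: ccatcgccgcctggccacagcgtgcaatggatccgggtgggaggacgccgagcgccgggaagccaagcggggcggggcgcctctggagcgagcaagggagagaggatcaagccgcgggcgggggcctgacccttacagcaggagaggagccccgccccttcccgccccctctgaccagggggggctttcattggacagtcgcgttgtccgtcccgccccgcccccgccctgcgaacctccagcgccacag
Wnt9a: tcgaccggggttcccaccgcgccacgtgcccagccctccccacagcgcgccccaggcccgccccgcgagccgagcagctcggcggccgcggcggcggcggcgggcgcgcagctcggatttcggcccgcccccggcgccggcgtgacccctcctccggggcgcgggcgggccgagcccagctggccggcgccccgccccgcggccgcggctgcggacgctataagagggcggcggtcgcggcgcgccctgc

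Of the 4 windows, that of Sfrp5 held 2 matches to the GATA word and the others held none of the 5 motifs. The 11 genes had 14 windows. Of these, 2 held the GATA word (Sfrp5 and Fzd1), 1 the T-box word (Wnt5b) and 3 the TCF/LEF word (Fzd1, Wnt11 and Wnt5b). The CArG box and the MEF2 box were found in 0 of the 14. Over all 32851 windows of this length, 9.99% held the GATA word, 11.8% the T-box word, 13.8% the TCF/LEF word, 1.47% a CArG box and 0.508% a MEF2 box. The G and C content was 59.6% for Sfrp5, 65.2% for Fzd7, 72.8% for Fzd4 and 84.4% for Wnt9a. The median was 52.4% over all windows and 64.4% over the 14 windows of the 11 genes. A match is a description of the letters and not a binding site, and a missing match says only that the letters are not in this window.

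Among the ligands, levels were low and 5 of 19 genes could be given a fold. Wnt9a, a ligand of the β-catenin branch in several tissues, had 117 counts in MICFs, against 4 in GMTMS-iCMs and 64 in the GMTMM-labelled library (2.44, 0.129 and 1.65 FPKM). It was 18.9-fold lower in GMTMS-iCMs than in MICFs (7.18 to 70.4) and 12.7-fold lower than in the GMTMM-labelled library (4.73 to 48.1). MICFs and the GMTMM-labelled library lay close together for this gene, with MICFs 1.48 times as high (1.09 to 2.05). Wnt5a, best known for signalling without β-catenin through Ror receptors, had 97, 24 and 65 counts in the same order (0.862, 0.330 and 0.711 FPKM). It was 2.61-fold lower in GMTMS-iCMs than in MICFs (1.65 to 4.27), and the GMTMM-labelled library stood at 0.825 times the MICF level (0.593 to 1.14), an interval that holds 1.

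Wnt4 and Wnt11 were highest in the GMTMM-labelled library. Wnt11, which acts largely through the planar polarity branch and has known roles in early heart formation, had 19 counts in MICFs, against 9 in GMTMS-iCMs and 85 in the GMTMM-labelled library (0.319, 0.234 and 1.76 FPKM). It was 5.51-fold higher in the GMTMM-labelled library than in MICFs (3.32 to 9.60), whereas GMTMS-iCMs stood at 0.734 times the MICF level (0.292 to 1.70). Wnt4, a ligand needed for kidney and ovary development, had 41, 12 and 118 counts (0.679, 0.308 and 2.41 FPKM). It was 3.55-fold higher in the GMTMM-labelled library (2.47 to 5.19) and 2.21-fold lower in GMTMS-iCMs (1.14 to 4.61), both against MICFs. For both ligands the GMTMM-labelled library thus stood apart above the other 2 libraries, and the interval for GMTMS-iCMs against MICFs left out 1 for Wnt4 and held 1 for Wnt11.

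Wnt5b, the paralog of Wnt5a, was the ligand with the order opposite to that of Wnt9a and Wnt5a. It had 12 counts in MICFs, against 37 in GMTMS-iCMs and 23 in the GMTMM-labelled library (0.314, 1.50 and 0.742 FPKM). GMTMS-iCMs were 4.78-fold above MICFs (2.44 to 10.1), the GMTMM-labelled library 2.36-fold (1.13 to 5.21), and the fold between the iCM libraries was 2.02 (1.17 to 3.57), just past the limit for a call. The leading ligand therefore differed among libraries: Wnt9a made up 46.6% of the summed Wnt FPKM in MICFs, Wnt5b 48.8% in GMTMS-iCMs and Wnt4 29.3% in the GMTMM-labelled library. In the last of these, the Poisson intervals of Wnt4 and Wnt11 overlapped, so their order is not resolved by counting. The sum over all 19 Wnt genes was 5.24 ± 0.312 FPKM in MICFs, against 3.08 ± 0.323 in GMTMS-iCMs and 8.21 ± 0.437 in the GMTMM-labelled library (± counting SD). Of the ligands below 20 counts, Wnt2b had 14, 1 and 4 counts, Wnt6 had 5, 5 and 10, and Wnt7b had 3, 8 and 3. Wnt2, Wnt7a, Wnt9b, Wnt10b and Wnt16 had at most 7 counts in any library. Wnt3a, the ligand most used to activate β-catenin in culture, had 0, 1 and 0 counts, and Wnt3 and Wnt10a had 1 count each, in the GMTMM-labelled library.

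**Figure D2:**
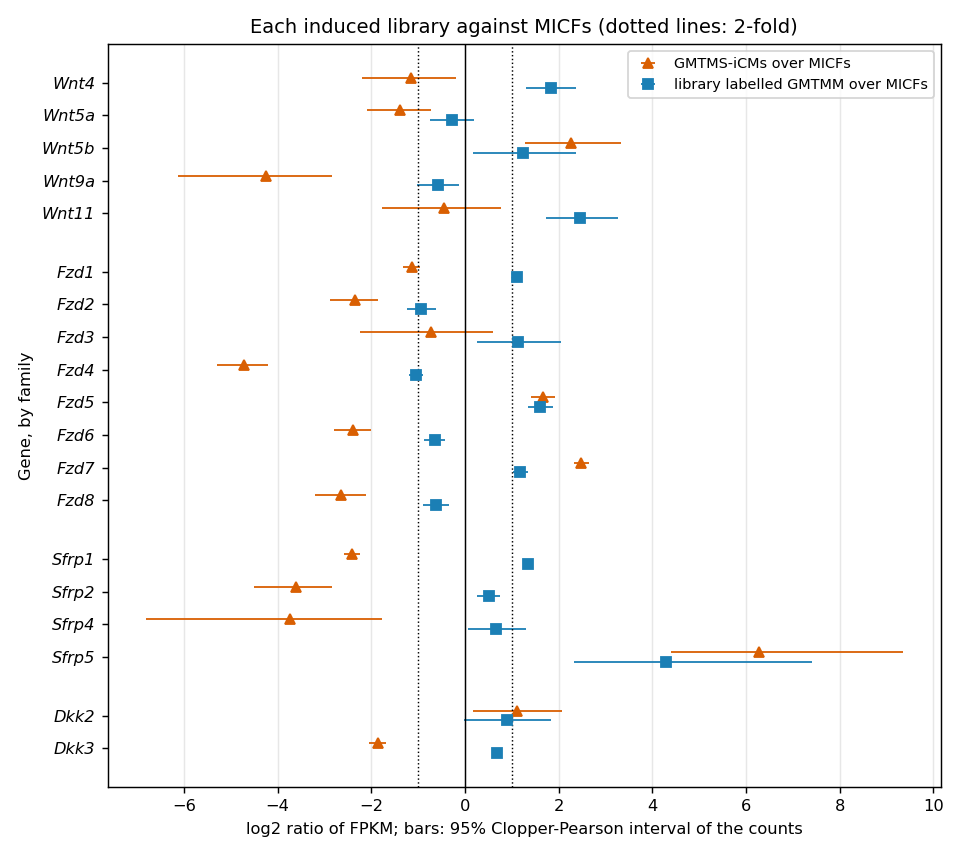
The log2 ratio of FPKM of each iCM library over MICFs for the 19 genes, with 95% Clopper-Pearson intervals of the counts as bars and dotted lines at 2-fold. In GMTMS-iCMs, Fzd4 lies furthest to the left at 26.4-fold lower, and Sfrp5 furthest to the right, where the MICF library had 2 counts.

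The receptors were the most abundant of the 4 families by summed FPKM in MICFs and in GMTMS-iCMs, with close sums in both on the deposited scale. The 10 Fzd genes summed to 60.4 ± 0.963 FPKM in MICFs, against 58.3 ± 1.17 in GMTMS-iCMs and 81.7 ± 1.25 in the GMTMM-labelled library (± counting SD), a ratio of 0.964 (0.917 to 1.01) for GMTMS-iCMs over MICFs. This ratio was 0.908 with TMM library sizes and 0.695 with library totals. The receptors that made up the sum differed between the libraries. Without Fzd7 the other 9 genes summed to 53.4, 18.6 and 65.7 FPKM, which is 2.87-fold lower in GMTMS-iCMs than in MICFs (2.66 to 3.10).

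Fzd7 (ENSMUSG00000041075, chromosome 1) is a receptor known from embryonic and stem cells that can serve both branches of the pathway. It had 461 counts in MICFs, against 1670 in GMTMS-iCMs and 851 in the GMTMM-labelled library (7.07, 39.7 and 16.1 FPKM). It was 5.61-fold higher in GMTMS-iCMs than in MICFs (5.06 to 6.24), 2.27-fold higher in the GMTMM-labelled library (2.03 to 2.55), and 2.47-fold higher in GMTMS-iCMs than in the GMTMM-labelled library (2.27 to 2.68). Its rank among protein-coding genes by FPKM went from 5287 in MICFs to 1276 in GMTMS-iCMs and 2954 in the GMTMM-labelled library. Within the family its share was 11.7%, 68.1% and 19.7%.

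Fzd5, which binds several Wnt proteins and signals through β-catenin, was higher in both iCM libraries. The counts were 176 in MICFs, against 360 in GMTMS-iCMs and 436 in the GMTMM-labelled library (1.77, 5.61 and 5.40 FPKM), or 3.17-fold (2.64 to 3.82) and 3.05-fold (2.56 to 3.66) above MICFs. The iCM libraries differed by a ratio of 1.04, with an interval from 0.901 to 1.20 that holds 1. Of its exon bases, 17.8% are shared with an antisense gene that had 0 or 1 count in each library, and the smaller shares of Wnt11 (8.80%), Wnt5a (4.58%) and Fzd6 (3.15%) lie in antisense genes with 0 to 3 counts.

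Fzd4, the receptor for the ligand Norrin (Ndp) in blood vessels and the second-highest receptor in MICFs, showed the largest fall of the family. It had 1227 counts in MICFs, against 30 in GMTMS-iCMs and 481 in the GMTMM-labelled library (12.7, 0.481 and 6.13 FPKM). GMTMS-iCMs were 26.4-fold below MICFs (18.4 to 39.3) and 12.7-fold below the GMTMM-labelled library (8.81 to 19.1). The GMTMM-labelled library was 2.07-fold below MICFs, with an interval (1.86 to 2.31) that includes 2. Tspan12, the partner of Fzd4 in Norrin signalling, had 22 counts in GMTMS-iCMs and 250 in MICFs, 7.33-fold lower. Each of the 7 endothelial markers was lower in GMTMS-iCMs, with a median log2 fold against MICFs of -5.45 and sums of 402 FPKM in MICFs, against 11.5 in GMTMS-iCMs and 305 in the GMTMM-labelled library, where 2 of 7 were lower (median log2 fold -0.29). Their part in the Fzd4 result was not tested. In bulk RNA of this kind, fewer cells of a type and less RNA per cell cannot be told apart, which holds for every fold given here.

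Fzd6, Fzd8 and Fzd2 were called lower in GMTMS-iCMs and not in the GMTMM-labelled library. Fzd6, a receptor of the planar polarity branch, had 502, 62 and 260 counts (7.24, 1.39 and 4.62 FPKM) and was 5.23-fold lower in GMTMS-iCMs than in MICFs (4.01 to 6.92). Fzd8 had 309, 32 and 164 counts (6.42, 1.03 and 4.20 FPKM) and was 6.23-fold lower (4.32 to 9.27). Fzd2, a receptor for Wnt5a among other ligands, had 291, 37 and 124 counts (5.52, 1.09 and 2.90 FPKM) and was 5.08-fold lower (3.60 to 7.35). In the GMTMM-labelled library these 3 genes stood at 0.638, 0.654 and 0.525 times their MICF level, and GMTMS-iCMs were lower than that library for each, by 3.33-fold, 4.08-fold and 2.66-fold. The level order in MICFs placed Fzd6, Fzd7, Fzd8 and Fzd2 next to each other, with Poisson intervals of neighbours that overlapped.

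Fzd1 (ENSMUSG00000044674, chromosome 5 from 4753839 to 4758035) was the highest receptor in MICFs and in the GMTMM-labelled library. It had 1177 counts in MICFs, against 345 in GMTMS-iCMs and 2066 in the GMTMM-labelled library (19.5, 8.85 and 42.1 FPKM). It was 2.20-fold lower in GMTMS-iCMs (1.95 to 2.49) and 2.16-fold higher in the GMTMM-labelled library (2.01 to 2.32), both against MICFs, and 4.76-fold apart between the iCM libraries (4.25 to 5.35). The leading receptor was thus Fzd1 in MICFs (32.2% of the family's FPKM), Fzd7 in GMTMS-iCMs (68.1%) and Fzd1 in the GMTMM-labelled library (51.6%). Fzd3, with 18, 7 and 32 counts, was 2.19-fold higher in the GMTMM-labelled library than in MICFs (1.19 to 4.14), and GMTMS-iCMs stood at 0.602 times MICFs (0.213 to 1.51). Fzd9 had 5, 2 and 1 counts and Fzd10 had 1 count, in the GMTMM-labelled library.

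**Figure D3:**
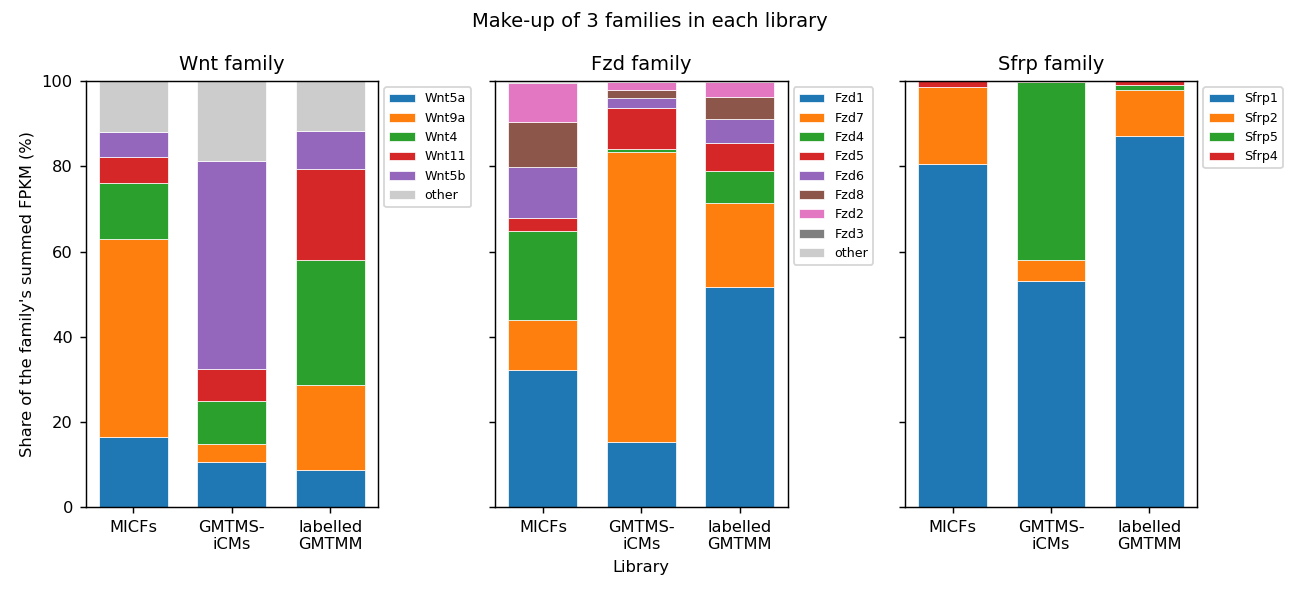
Share of each family's summed FPKM taken by its genes in each library, as stacked bars filling the whole, for the Wnt, Fzd and Sfrp families, with genes under 20 counts drawn as other. Fzd7 fills 68.1% of the receptor bar and Sfrp5 41.6% of the Sfrp bar in GMTMS-iCMs, against 11.7% and 0.152% in MICFs.

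The Sfrp family held both the most abundant of the 37 genes by FPKM in MICFs and in the GMTMM-labelled library, Sfrp1, and the gene with the largest ratio between libraries, Sfrp5. Sfrp1 (ENSMUSG00000031548, chromosome 8 from 23411502 to 23449632), a secreted decoy made by fibroblasts of many organs, had 2435 counts in MICFs, against 296 in GMTMS-iCMs and 5060 in the GMTMM-labelled library (38.7, 7.29 and 99.1 FPKM). GMTMS-iCMs were 5.31-fold below MICFs (4.70 to 6.01), the GMTMM-labelled library was 2.56-fold above them (2.44 to 2.69), and the iCM libraries were 13.6-fold apart (12.1 to 15.3). Its rank among protein-coding genes was 916 in MICFs, against 5146 in GMTMS-iCMs and 480 in the GMTMM-labelled library.

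Sfrp2 and Sfrp4 were lower in GMTMS-iCMs as well. Sfrp2, a decoy that fibroblasts of the injured heart are known to make, had 266, 14 and 306 counts (8.59, 0.700 and 12.2 FPKM) and was 12.3-fold lower in GMTMS-iCMs than in MICFs (7.18 to 22.7). The GMTMM-labelled library stood at 1.42 times the MICF level (1.20 to 1.68), under the limit for a call. Of its exon bases, 16.1% are shared with an antisense gene that had 0 counts in every library. Sfrp4 had 41, 2 and 53 counts (0.682, 0.0515 and 1.09 FPKM), and with 2 counts in GMTMS-iCMs the ratio of MICFs over them was 13.2 with a wide interval (3.44 to 113).

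Sfrp5, the close relative of Sfrp1, went the other way. It had 2 counts in MICFs, against 101 in GMTMS-iCMs and 32 in the GMTMM-labelled library (0.0732, 5.72 and 1.44 FPKM). The ratio to MICFs was 78.2 in GMTMS-iCMs (21.1 to 655) and 19.7 in the GMTMM-labelled library (5.03 to 170), and GMTMS-iCMs were 3.97-fold above the GMTMM-labelled library (2.64 to 6.11). Within the family it took 0.152% of the FPKM in MICFs, against 41.6% in GMTMS-iCMs and 1.27% in the GMTMM-labelled library, and in GMTMS-iCMs its interval overlapped that of Sfrp1. GMTMS-iCMs thus held the lowest level of Sfrp1, Sfrp2 and Sfrp4 and the highest level of Sfrp5.

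The 4 Sfrp genes summed to 48.0 ± 0.952 FPKM in MICFs, against 13.8 ± 0.735 in GMTMS-iCMs and 114 ± 1.58 in the GMTMM-labelled library (± counting SD), 3.49-fold lower (3.12 to 3.90) and 2.37-fold higher (2.26 to 2.48) than in MICFs. With library totals these folds were 4.84 and 1.92, the second under the limit of 2. Set against the summed receptors of the same library, there were 0.795 ± 0.0202 Sfrp FPKM for each Fzd FPKM in MICFs, against 0.236 ± 0.0135 in GMTMS-iCMs and 1.39 ± 0.0288 in the GMTMM-labelled library. Frzb, a further decoy of this kind whose symbol the rule does not take, had 1443, 200 and 1610 counts and was 4.66-fold below MICFs in GMTMS-iCMs. With Frzb the ratios were 1.31, 0.350 and 1.91, in the same order of libraries. This ratio is within a library, so the choice of library size does not enter it.

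Fibroblast markers moved with the Sfrp sum. All 9 were lower in GMTMS-iCMs (median log2 fold against MICFs -2.49), where 19.1% of all 12835 genes were lower. In the GMTMM-labelled library 4 of 9 were higher, with a median of 0.82, where 12.7% of all genes were higher. These were Col1a1 (2.40-fold), Col1a2 (2.31-fold), Lum (2.40-fold) and Postn (2.92-fold), on the deposited scale. Their summed level was 1491 FPKM in MICFs, against 223 in GMTMS-iCMs and 2838 in the GMTMM-labelled library. None of the 9 stood at 0 in any library. Epicardial markers, of cells that also express several Wnt pathway genes, summed to 0.852, 3.57 and 15.5 FPKM over 5 genes, with Msln and Krt19 at 0 counts in GMTMS-iCMs. Of the 4 with a fold, 2 were higher in GMTMS-iCMs and 4 in the GMTMM-labelled library, both against MICFs. The 6 smooth muscle and pericyte markers summed to 104, 97.1 and 243 FPKM, but the close sums of MICFs and GMTMS-iCMs held members that went both ways. In GMTMS-iCMs against MICFs 4 of the 6 were lower (Kcnj8 15.8-fold, Abcc9 13.2-fold, Notch3 6.79-fold and Rgs5 5.08-fold) and 2 were higher (Myh11 4.11-fold and Cnn1 2.92-fold), with a median log2 fold of -2.55. In the GMTMM-labelled library 4 were higher and 0 lower (median 1.21). The 7 macrophage markers summed to 8294, 15911 and 7577 FPKM. Of these, 5 of 7 were higher in GMTMS-iCMs than in MICFs, where 14.1% of all 12835 genes were. Their folds ran from 2.03 (C1qa) to 2.69 (Adgre1), while Csf1r and Lyz2 stood at 1.93 and 1.85 times MICFs. These folds lie near the limit for a call, and the other scales were not run on the markers. Xist, an RNA made by female cells, had 11855, 5279 and 1618 counts (45.9, 31.7 and 7.72 FPKM). The part of these cell types, or of the sex of the cells, in the results on the Wnt, Fzd, Sfrp and Dkk genes was not tested.

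In the Dickkopf family, Dkk3 made up 99.0%, 92.7% and 98.4% of the FPKM in the 3 libraries. Dkk3, a divergent member whose action on Lrp5 and Lrp6 is not settled, had 1607 counts in MICFs, against 286 in GMTMS-iCMs and 2081 in the GMTMM-labelled library (33.2, 9.17 and 53.0 FPKM). It was 3.63-fold lower in GMTMS-iCMs than in MICFs (3.20 to 4.13) and 5.79-fold lower than in the GMTMM-labelled library (5.11 to 6.57), and the latter stood at 1.60 times MICFs (1.49 to 1.70). Dkk2, a modulator of Lrp6, had 18, 25 and 27 counts and was 2.15-fold higher in GMTMS-iCMs than in MICFs (1.13 to 4.19), beside a ratio of 1.85 (0.981 to 3.56) in the GMTMM-labelled library. Dkk1, the classical inhibitor of the β-catenin branch, had 0, 0 and 7 counts. The Dickkopf level was thus that of Dkk3 in every library.

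The other genes of the pathway were taken from lists by role, 74 genes of which 73 were found and 55 reached 20 counts. In GMTMS-iCMs against MICFs 5 of the 55 were higher and 19 of the 55 lower, beside 1808 (14.1%) and 2456 (19.1%) of all 12835 genes. The median log2 fold was -0.41. In the GMTMM-labelled library against MICFs 12 of the 55 were higher and 3 lower (median 0.20), beside 1628 (12.7%) and 1098 (8.55%) of all 12835 genes. GMTMS-iCMs against the GMTMM-labelled library gave 4 of the 55 higher and 21 lower (median -0.54), beside 1257 (9.79%) and 2387 (18.6%) of all 12835 genes. These medians lay nearer to that of all genes than the medians of the 19 members did. Library totals and the other scales were not run on these lists, so the numbers called are those of the deposited scale. Library totals moved the median of all genes to -0.29 for the GMTMM-labelled library against MICFs. There Porcn (2.26-fold), Lgr4 (2.26-fold) and Axin2 (2.05-fold) lay just past the limit for a call. Ccnd1 and Pygo2, each 1.83-fold lower, lay just under it.

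At the cell surface, 5 of 7 co-receptors and non-canonical receptors were lower in GMTMS-iCMs than in MICFs, where 19.1% of all 12835 genes were lower. Lrp5, the β-catenin co-receptor, had 564 counts in GMTMS-iCMs and 1838 in MICFs, 2.10-fold lower, and Ryk and Ptk7, receptors that act beside Frizzled, were 3.95-fold and 6.68-fold lower. Lrp6 stood at 1.32 times MICFs (1.26 to 1.38). Porcn, the enzyme that attaches the lipid to Wnt proteins, was higher in both iCM libraries, with 60 counts in MICFs, 119 in GMTMS-iCMs (3.07-fold) and 110 in the GMTMM-labelled library (2.26-fold). Lgr6, an R-spondin receptor, had 1, 163 and 51 counts. Apcdd1, a membrane inhibitor of Wnt signalling, had 118, 4 and 86 counts and was 19.0-fold lower in GMTMS-iCMs than in MICFs.

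The 13 cytoplasmic components, which pass the signal on, had a median log2 fold of -0.04 in GMTMS-iCMs and -0.05 in the GMTMM-labelled library against MICFs, and Apc2 alone passed 2-fold, lower in both. Of 9 commonly used target genes found, 7 reached 20 counts. Axin2, the target most used to read β-catenin activity, had 15, 7 and 25 counts, with a fold of 2.05 (1.04 to 4.19) for the last over MICFs. For this gene GMTMS-iCMs stood at 0.723 times MICFs (0.249 to 1.88), an interval that holds 1. Nkd1, Nkd2 and Ccnd1 were lower in GMTMS-iCMs than in MICFs, by 6.37-fold, 9.96-fold and 3.08-fold, whereas Cd44 was 13.2-fold higher. Macrophages also express Cd44, and their markers had median log2 folds of 1.05 in GMTMS-iCMs and -0.11 in the GMTMM-labelled library against MICFs. Their part in the Cd44 folds was not tested. In the GMTMM-labelled library, Axin2, Myc (4.36-fold), Wisp1 (2.87-fold) and Cd44 (6.90-fold) were higher and none of the 7 was lower. In the planar polarity list, Vangl1 and Vangl2 were 3.69-fold and 4.04-fold lower in GMTMS-iCMs, and Celsr1 was 6.81-fold higher.

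**Figure D4:**
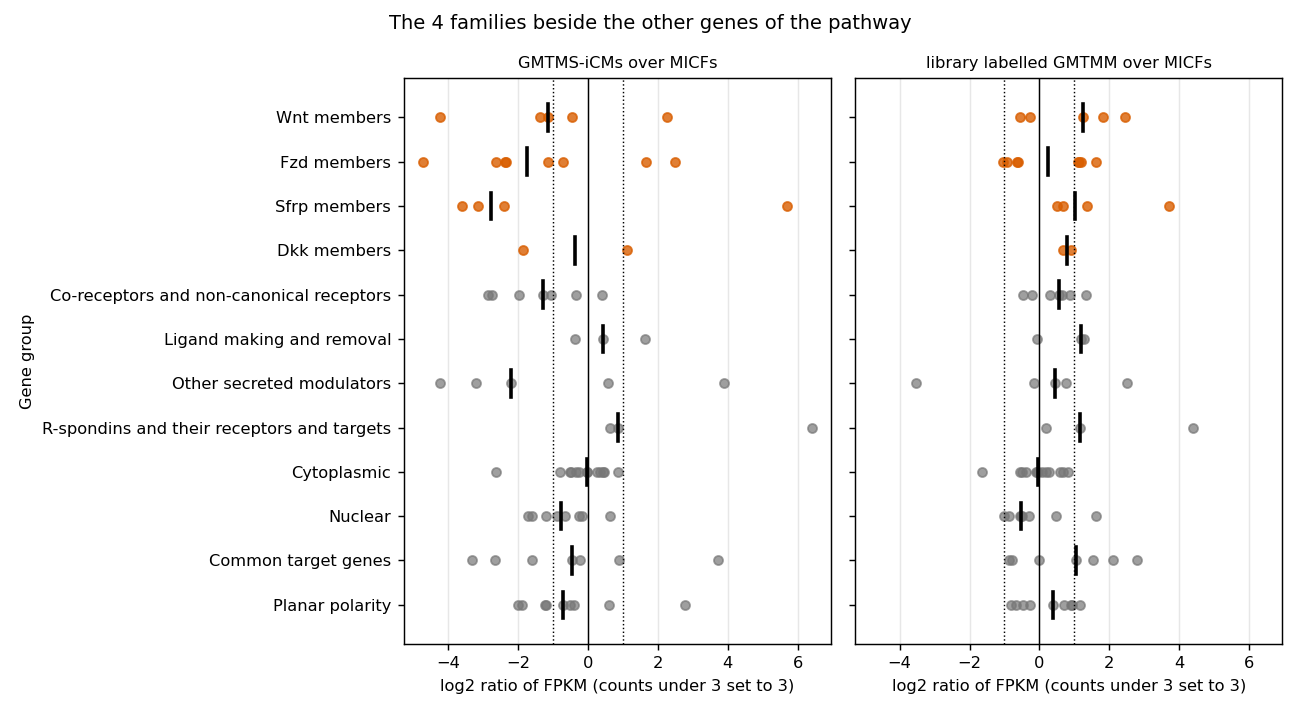
The log2 ratio of FPKM over MICFs for each gene with at least 20 counts in a library, with GMTMS-iCMs on the left and the GMTMM-labelled library on the right. Orange points are the 4 families, grey points the other pathway lists, black bars the median of each row, and dotted lines 2-fold. The cytoplasmic list sits around 0 in both panels (medians -0.04 and -0.05), while Sfrp genes spread from -3.62 to 5.70 on the left.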

How the data were processed

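Total RNA of 3 libraries was sequenced as paired reads of 150 nucleotides. The submitters' processing notes name HISAT2 2.0.5 and mm9, but 53462 of the 54409 gene IDs found in GENCODE M21 (98.3%), and 36 of the 37 members, have its GRCm38 coordinates, which are used here. The authors deposited whole-number counts per gene, without normalization, and FPKM per gene. How reads were counted, and whether strand was used, is not given in the sources used here. The FPKM follow from the counts, the gene lengths and 1 library size each, 14389264 (MICFs), 9287868 (GMTMS-iCMs) and 11680913 (library labelled GMTMM), so they carry the authors' scaling rather than the library totals, and medians over all genes lie near 0. The column named with an abbreviation for cardiac myofibroblasts was matched to MICFs, the only sample that the other columns do not name.

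Folds, intervals and summed FPKM were computed with Python 3.11.15, NumPy 2.4.6, pandas 2.3.3 and SciPy 1.17.1, figures with matplotlib 3.10.9, and TMM sizes with edgeR 4.0.16 in R 4.3.3. No p-value was computed, since each condition has 1 library. Fold and interval steps were checked on simulated Poisson counts with known folds and no variation between samples. This check covers the computation only. The genes named are all members that reached 20 counts, members below it by their counts, and genes of the pathway and marker lists. The members and lists were chosen with earlier results of these data known, and the 4 promoters and the pathway genes given with values were picked after their values were seen. Promoter windows are those of RefSeq. The alternatives were library totals, TMM, quantile-normalized log2(FPKM + 1), log2(FPKM + 1), a minimum of 50 counts, no minimum, an interval entirely past 2-fold, and a fold over 4. Summed family levels were also set on library totals and TMM sizes, an alternative chosen after seeing the data.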

Additional observations from a re-analysis of the deposited data

How the results depend on the processing

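No paired analysis was possible because there is a single library for every condition. Under the alternatives run, none of the 57 folds of single members that could be compared, and none of the medians, turned past 2-fold in the other direction. A number of members called has no direction to turn, so this says nothing of those numbers. Of the alternative values of the 9 counts and medians, 18 moved by more than 1.5-fold and 48 did not. Library totals kept the sign of 56 of the 57 folds, and the other scales of all 57. Of the 44 folds past 2-fold, 38 stayed past it with library totals, 43 with TMM, 30 with quantile-normalized values and 31 with log2(FPKM + 1), where the added 1 shrinks the folds of genes at low FPKM by construction. For GMTMS-iCMs against MICFs, the number of higher members went from 5 to 3 with log2(FPKM + 1), with a minimum of 50 counts and with a fold over 4, and the median log2 fold from -1.38 to -0.64 (quantile-normalized), -0.68 (log2(FPKM + 1)) and -2.10 (50 counts). For the GMTMM-labelled library against MICFs, the higher members went from 9 to 5 with library totals, 4 with quantile-normalized values and 2 with a fold over 4. The lower members there went from 1 to 2 with library totals and with no count minimum, and to 0 with log2(FPKM + 1), with an interval past 2-fold and with a fold over 4. Between the iCM libraries, 0 members were higher in GMTMS-iCMs with a fold over 4, and the median of -2.03 became -1.13 (quantile-normalized), -1.16 (log2(FPKM + 1)) and -1.41 (no count minimum). The cause of these shifts was not tested beyond the construction named. Library totals also moved the median of all genes to -0.52 and -0.29 for the iCM libraries against MICFs. Members with few counts, such as Wnt9a and Sfrp4 in GMTMS-iCMs and Sfrp5 in MICFs, are limited by depth.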
